A study of Mus musculus with 2 samples.

Results

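The genes described here encode the machinery that makes, measures and removes the poly(A) tail of mRNA: the cleavage and polyadenylation complexes, the poly(A) polymerases, the poly(A)-binding proteins, the deadenylases and the repressors that work with them. The set held 42 genes named by symbol, and its members on the array were all probe sets whose annotation gave 1 of these symbols, current or older, and no other. This gave 122 probe sets of 45037, for 41 of the 42 genes. RNA was taken from mouse Neuro2a neuroblastoma cells after 24 h with siRNA against Cpeb1 (siCPEB1) or with control siRNA (siControl), and each culture was hybridized to 1 Affymetrix Mouse Genome 430 2.0 array from 100 ng of total RNA. Neuro2a is an established line, and both cultures were of this line with no other treatment named in the labels. With 1 array per siRNA there was no replicate and therefore no test, and every difference below is between these 2 arrays.

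CPEB1 binds cytoplasmic polyadenylation elements in mRNA and sets the length of the poly(A) tail after export from the nucleus. In Xenopus oocytes it is known to hold a poly(A) polymerase and the deadenylase Parn together with symplekin and the cleavage and polyadenylation specificity factor CPSF on the same mRNA, where the deadenylase prevails until a signal expels it. In mammalian cells most tails are added in the nucleus by the canonical polymerase and are shortened in the cytoplasm, first by PAN2-PAN3 and then by the CCR4-NOT complex. CCR4-NOT carries a catalytic subunit of the Ccr4 type (Cnot6 or Cnot6l) and another of the Caf1 type (Cnot7 or Cnot8).

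The signal of a probe set is the deposited MAS5 value on a linear intensity scale, and the log2 ratio is that of the siCPEB1 over the siControl signal, so that a negative value is lower in siCPEB1-transfected cells. A probe set was counted when its signal was at or above the median of 1 array and not under the 25th percentile of the other array, with medians of 21.6 in siCPEB1 and 21 in siControl. Cpeb1 itself had a signal of 38.5 in siCPEB1-transfected cells and 302 in siControl-transfected cells, 7.86-fold lower. The spread at hand was that between probe sets of 1 gene, a pooled SD of 0.37 over 5531 genes with several counted probe sets and 0.30 over 33 members. It was 0.51 for genes with a mean signal under 100 and 0.23 for those at 100 or more, and it holds nothing of the spread between cultures. The labelled cell type was checked against 13 markers of sympathetic neuroblastoma, of which 10 were measured, and Ddc, the enzyme that makes dopamine, had 746 in siCPEB1 and 313 in siControl. Th, the first enzyme of the same pathway and a defining marker, was too dim in both arrays, at 17.9 in siCPEB1 and 18.6 in siControl. At 1 probe set per gene, in siCPEB1-transfected cells 5 of these 10 (Dbh, Ddc, Phox2a, Gata3 and Isl1) were more than 2-fold higher. The share of all 11554 genes more than 2-fold higher was 4.99%. Above 0 lay 8 of the 10 markers, where 6213 of the 11554 genes did. The 2 below 0 were Stmn2 (-0.30) and Gap43 (-0.33). Of 7 fibroblast markers 2 were measured and 1, Col1a2, was past 2-fold, with a summed list signal of 398 in siCPEB1 and 109 in siControl. Of the glial, haematopoietic and endothelial lists 4 of 16 genes were measured, with summed signals of 81.6 to 107 in siCPEB1 and 67.2 to 70.8 in siControl, and at 1 probe set per gene 1 of the 4 was past 2-fold higher (Tyrobp, 22.8 in siCPEB1 and 9.62 in siControl). The part of these marker differences in the values below was not tested, and in RNA of whole cultures a lower share of cells with an mRNA and less of it per cell cannot be told apart.

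Most of the machinery was measured at nearly the same level in the 2 cultures. The 5 counted probe sets past 2-fold were lower in siCPEB1, and their share was near that of all probe sets past 2-fold lower. All 41 genes had a counted probe set, and 112 of their 122 probe sets were counted. The 10 others, all dim, had log2 ratios between -2.85 and 3.08. At 1 probe set per gene, none of the 41 genes was more than 2-fold higher in siCPEB1-transfected cells, against 4.99% of 11554 genes, and none was more than 2-fold lower, against 3.49%. Among 7291 genes of brighter signal, 40 of them members, 2.54% were past 2-fold higher and 3.11% past 2-fold lower, and no member was in either count. Over probe sets, 0 of 112 were more than 2-fold higher, where 4.49% of all 23655 were, and 5 of 112 were more than 2-fold lower, where 4.04% were. The share of lower member probe sets, 4.46%, thus lay near that of all probe sets. These 5 belonged to Cnot6 (2 of them), Cnot8, Papola and Cpsf7.

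The log2 ratio of the 41 genes ran from -0.89 to 0.87, with a median of -0.06 and an SD of 0.38. All 11554 genes had a median of 0.05 and an SD of 0.60, and the 7291 brighter ones a median of 0.02 and an SD of 0.51. Below 0 lay 24 of the 41 genes (58.5%), where 46.2% of all genes did. Of the 112 probe sets 61 were below 0 (54.5%), where 48% of all 23655 were. With a threshold of 1.5-fold, chosen after the values had been seen, 2 of 41 genes were higher (Cnot4 and Btg1, with 13.4% of all genes) and 4 were lower (Cnot6, Cnot8, Cstf2 and Papolg, with 10.8% of all genes). Neither share of members, 4.88% and 9.76%, was above that of all genes.

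**Figure D1:**
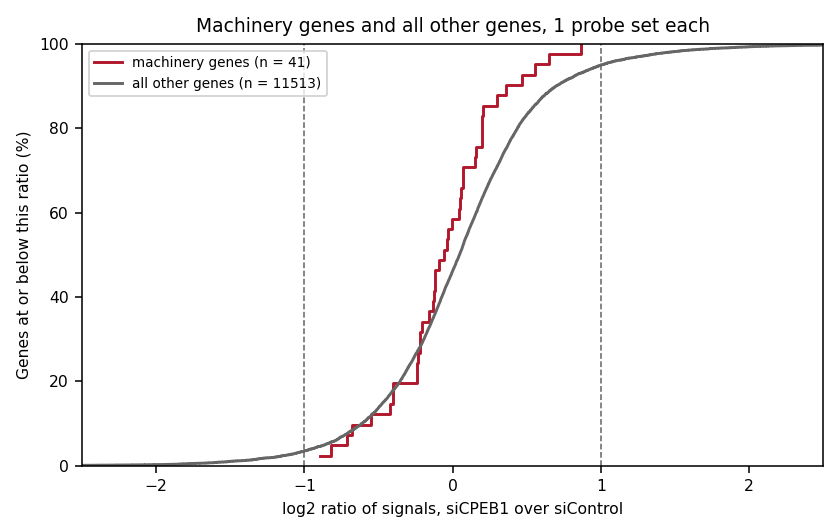
Cumulative share of genes at or below a given ratio (vertical axis, percent) by log2 ratio of siCPEB1 over siControl (horizontal axis) at 1 probe set per gene, for the 41 members (red) and all other genes (grey). The members lie between -0.89 and 0.87, inside the dashed lines at 2-fold, and their spread (SD 0.38) is narrower than that of all genes (SD 0.60).

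Several probe sets of 1 gene measure it more than once, although they share the RNA and the array. In counts also chosen after the values had been seen, the mean over at least 2 counted probe sets was more than 1.5-fold higher in none of 33 members, with 9.73% of 5531 genes, and more than 1.5-fold lower in 4 of them (Cnot6, Cnot8, Papola and Tob1), with 9.13%. It was more than 2-fold lower in 1 member, Cnot6, with 2.4% of all such genes. Of 20 members with at least 3 counted probe sets, 4 had all of them above 0 (Cnot4, Cnot6l, Ddx6 and Pum2), with 25.8% of 2371 genes, and 7 had all of them below 0 (Cnot6, Cnot7, Cnot10, Papola, Cstf2, Nudt21 and Pabpn1), with 24.4%. Under the 4 other scalings Cnot6l left the higher group. Pabpn1 left the lower group with loess and quantile normalization, and Cnot2 joined it when each array was divided by its median or 75th percentile. The plot of all member probe sets by gene shows this order within each complex.

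**Figure D2:**
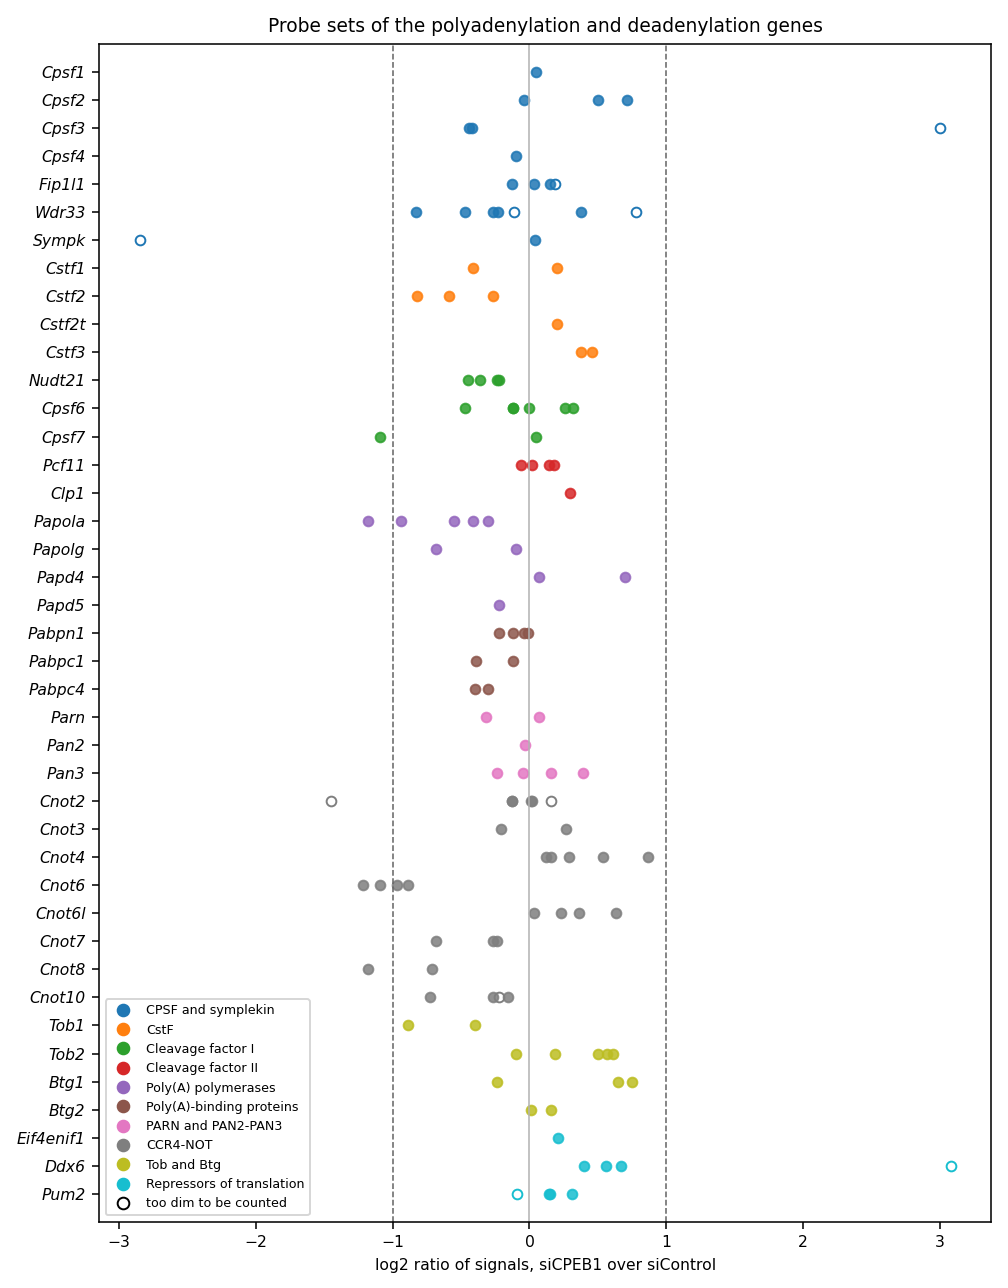
Log2 ratio of siCPEB1 over siControl (horizontal axis) for each of the 122 member probe sets, with 1 row per gene and colours for the complexes. Filled points were counted and open points were too dim, dashed lines mark 2-fold, and the 5 filled points left of the lower line are those of Cnot6 (2), Cnot8, Papola and Cpsf7.

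The lowest gene mean of the set belonged to a deadenylase. Cnot6, a Ccr4-type catalytic subunit of CCR4-NOT, was lower at all 4 of its probe sets. The brightest had 943 in siCPEB1 and 1749 in siControl (log2 ratio -0.89). Another had 550 in siCPEB1 and 1168 in siControl (-1.09), and a further one 497 in siCPEB1 and 1157 in siControl (-1.22). The dimmest had 276 in siCPEB1 and 540 in siControl (-0.97), so 2 of the 4 were past 2-fold and the others lay just inside it. Their mean was -1.04 ± 0.14 (SD over 4 probe sets), with all 4 further below 0 than the pooled spread of 0.37.

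Cnot6l, the paralogue that can take the place of Cnot6 in the complex, had all 4 probe sets above 0, although its lowest turned to -0.02 to -0.01 under the 4 other scalings of the arrays. Its probe sets had 677 in siCPEB1 and 528 in siControl (0.36), and 383 in siCPEB1 and 248 in siControl (0.63). The dimmer pair had 101 in siCPEB1 and 99.1 in siControl (0.03), and 101 in siCPEB1 and 85.6 in siControl (0.23). Their mean was 0.31 ± 0.25 (SD over 4 probe sets), and none was past 2-fold. The ratios of Cnot6 and Cnot6l did not overlap, and their means differed by -1.35 on the log2 scale, a 2.56-fold difference in ratio, which is a difference between ratios and not between levels.

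Both Caf1-type subunits had ratios below 0 at every probe set. Cnot8 had 332 in siCPEB1 and 544 in siControl (-0.71), and at its other probe set 200 in siCPEB1 and 452 in siControl (-1.18), which is 2.26-fold lower. Cnot7 had 1150 in siCPEB1 and 1840 in siControl (-0.68), 832 in siCPEB1 and 982 in siControl (-0.24), and 301 in siCPEB1 and 363 in siControl (-0.27). None of the Cnot7 probe sets was past 2-fold, and the lowest Cnot7 ratio lay just above the higher one of Cnot8.

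**Figure D3:**
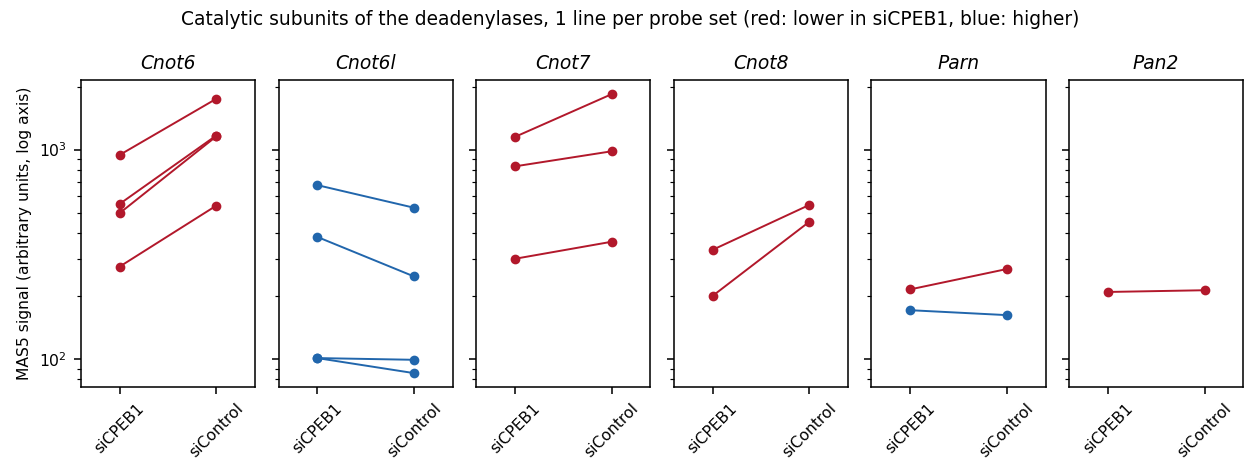
MAS5 signal (log axis) of each counted probe set of the catalytic deadenylase subunits in siCPEB1 (left) and siControl (right), with 1 line per probe set. All 4 lines of Cnot6 and both of Cnot8 are lower in siCPEB1, and all 4 of Cnot6l are higher as deposited, by log2 ratios of 0.03 to 0.63, of which the lowest turns to -0.02 to -0.01 when the arrays are scaled otherwise; heights are not comparable between probe sets.

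The other CCR4-NOT subunits among the members held no counted probe set past 2-fold. Cnot11, a subunit outside the set, had a counted probe set at -1.62 and is described below. Cnot4, a ubiquitin ligase that joins the complex, had the highest ratio of the set at its chosen probe set, with 912 in siCPEB1 and 501 in siControl (0.87). Its 4 other probe sets lay between 0.12 and 0.54, and the mean of all 5 was 0.39. Cnot2, which docks on the scaffold with Cnot3, lay between -0.13 and 0.02 at 4 probe sets, Cnot3 had -0.21 and 0.27, and Cnot10, a subunit of the module at the other end of the scaffold, lay between -0.73 and -0.16. Of the 27 counted CCR4-NOT probe sets 12 were above 0 and 15 below.

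The member deadenylase genes outside CCR4-NOT lay between -0.32 and 0.39 at their 7 counted probe sets, with a median of -0.03. Parn, the nuclease of the oocyte CPEB1 complex, had 215 in siCPEB1 and 269 in siControl (-0.32) at 1 probe set, and 171 in siCPEB1 and 162 in siControl (0.07) at the other. Pan2, the catalytic subunit of PAN2-PAN3, had a log2 ratio of -0.03, and its partner Pan3 ranged from -0.24 to 0.39 over 4 probe sets. The probe sets of Parn and Pan3 thus lay on both sides of 0.

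Tob and Btg proteins bind the Caf1 subunits and bring the deadenylase to mRNA, and Tob proteins are known to link it to CPEB-family proteins and to the cytoplasmic poly(A)-binding protein. Tob1 had 1104 in siCPEB1 and 1461 in siControl (-0.40), and 26.3 in siCPEB1 and 48.7 in siControl (-0.89) at a dim probe set. Tob2 had 1026 in siCPEB1 and 694 in siControl (0.57), and 758 in siCPEB1 and 497 in siControl (0.61). Its other 3 probe sets had 165 in siCPEB1 and 117 in siControl (0.50), 163 in siCPEB1 and 143 in siControl (0.19), and 45 in siCPEB1 and 48.1 in siControl (-0.10). No Tob probe set was past 2-fold, and both Tob1 ratios lay below all 5 of Tob2.

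Btg1, an antiproliferative member of the same family, had 2259 in siCPEB1 and 1439 in siControl (0.65), and 1874 in siCPEB1 and 1117 in siControl (0.75). A dim probe set had 20.8 in siCPEB1 and 24.5 in siControl (-0.24), so its bright and dim probe sets lay on opposite sides of 0. Btg2 had 0.01 and 0.16. Over the 4 genes, 8 of 12 counted probe sets were above 0, where 12292 of all 23655 were. The genes did not share a direction, as those of Tob1 lay below 0.

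The poly(A) polymerases had a median of -0.39 over 4 genes at 1 probe set per gene, where all genes had 0.05. Below 0 lay 8 of their 10 counted probe sets, 5 of them of Papola, where 48% of all counted probe sets did. Papola, the canonical nuclear polymerase, was below 0 at all 5 probe sets. It had 1097 in siCPEB1 and 1605 in siControl (-0.55), 235 in siCPEB1 and 312 in siControl (-0.41), and 109 in siCPEB1 and 208 in siControl (-0.94). Its dimmer probe sets had 58.6 in siCPEB1 and 72.2 in siControl (-0.30), and 21.4 in siCPEB1 and 48.5 in siControl (-1.18, 2.27-fold lower). The mean was -0.68 ± 0.37 (SD over 5 probe sets), and the dimmest of the 5 alone was past 2-fold. Papolg, its close nuclear relative, had -0.68 at the brighter and -0.10 at the dimmer of 2 probe sets.

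The non-canonical polymerases lay on both sides of 0. Papd4 (Tent2 in RefSeq), the cytoplasmic polymerase that lengthens tails with CPEB1 in Xenopus oocytes, had 1055 in siCPEB1 and 1007 in siControl (0.07), and 278 in siCPEB1 and 171 in siControl (0.70). Papd5 (Tent4b in RefSeq), which adds short tails to nuclear RNAs bound for decay, had 775 in siCPEB1 and 902 in siControl (-0.22). Neither was past 2-fold.

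The poly(A)-binding proteins had all 8 counted probe sets below 0, between -0.40 and -0.01, although the chosen probe set of Pabpn1 turned to 0.10 with loess and 0.13 with quantile normalization, another of Pabpn1 to 0.04 and 0.03, and that of Pabpc1 to 0.00 and 0.06. Pabpc1, the main cytoplasmic protein that coats tails, had 7786 in siCPEB1 and 8452 in siControl (-0.12), and 126 in siCPEB1 and 165 in siControl (-0.39). Pabpn1, the nuclear protein that sets tail length, lay between -0.22 and -0.01, and Pabpc4, a cytoplasmic relative, had -0.40 and -0.30. None was past 2-fold. Of all counted probe sets, 48% were below 0.

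In the cleavage machinery, the complex that reads the AAUAAA signal had a median of -0.10 over 7 genes. Cpsf1, its largest subunit, had 604 in siCPEB1 and 582 in siControl (0.05), and Sympk, the scaffold symplekin, had 419 in siCPEB1 and 407 in siControl (0.04). Another Sympk probe set was too dim to be counted, with 1.4 in siCPEB1 and 10.1 in siControl. Both are members of the oocyte CPEB1 complex, and both lay within 0.05 of 0 at the counted probe sets.

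Cpsf3, the endonuclease that cuts the pre-mRNA, had -0.44 and -0.42, while its non-catalytic relative Cpsf2 ranged from -0.04 to 0.71 over 3 probe sets. Cpsf4, which binds the signal with Wdr33, had -0.10, and Fip1l1, which holds the polymerase, ranged from -0.13 to 0.15. Wdr33 had 202 in siCPEB1 and 238 in siControl (-0.23), and 183 in siCPEB1 and 220 in siControl (-0.27). Its dimmer probe sets had 75.8 in siCPEB1 and 58.3 in siControl (0.38), 30.4 in siCPEB1 and 42.1 in siControl (-0.47), and 13.5 in siCPEB1 and 23.9 in siControl (-0.83). The other pair was too dim to be counted, with 16 in siCPEB1 and 17.2 in siControl (-0.11), and 19.8 in siCPEB1 and 11.5 in siControl (0.78). The dim counted ones spanned more than 1 log2 unit around the bright ones.

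In the cleavage stimulation factor, which binds downstream of the cut, the RNA-binding subunit Cstf2 had 853 in siCPEB1 and 1508 in siControl (-0.82), and -0.27 and -0.59 at the others. Cstf2t, the retrogene copy of Cstf2 known from the testis, had 1531 in siCPEB1 and 1335 in siControl (0.20). Cstf1 had 0.20 and -0.41, and the scaffold Cstf3 0.38 and 0.46. Cstf2 was therefore the only gene of the 4 with every counted probe set below 0.

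Cleavage factor I binds UGUA upstream of the cut and bears on the choice of poly(A) site. Its RNA-binding subunit Nudt21 lay between -0.45 and -0.22 at 4 probe sets, and Cpsf6 between -0.47 and 0.32 at 6. Cpsf7, the alternative to Cpsf6, had 459 in siCPEB1 and 443 in siControl (0.05) at its bright probe set and 13.7 in siCPEB1 and 29.1 in siControl (-1.09) at a dim one, so the call of past 2-fold rests on the dim one. Pcf11, the cleavage factor II subunit that contacts RNA polymerase II, lay between -0.06 and 0.18, and Clp1, an RNA kinase in the same factor, had 0.30.

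The 3 members grouped as repressors of translation that bind CPEB1 or its targets lay above 0 at all 7 counted probe sets. Their ratios ran between 0.14 and 0.67, and none was past 2-fold. Of all 23655 counted probe sets, 12292 were above 0. Lsm14a, a P-body component outside this group that binds Ddx6, lay between -1.17 and -0.72 at its counted probe sets. Ddx6, the helicase of stored and decaying mRNPs, had 735 in siCPEB1 and 500 in siControl (0.56), 225 in siCPEB1 and 171 in siControl (0.40), and 172 in siCPEB1 and 108 in siControl (0.67). A further Ddx6 probe set was too dim, with 15.8 in siCPEB1 and 1.87 in siControl. Eif4enif1 (4E-T), which binds the cap-binding protein and is part of the oocyte complex, had 714 in siCPEB1 and 619 in siControl (0.21). Pum2, a Pumilio protein that binds beside CPEB1 on some Xenopus mRNAs, had 741 in siCPEB1 and 666 in siControl (0.15), 699 in siCPEB1 and 565 in siControl (0.31), and 434 in siCPEB1 and 394 in siControl (0.14). A dim Pum2 probe set had 13.4 in siCPEB1 and 14.3 in siControl and was not counted.

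The set holds 9 pairs of paralogues, and how far the 2 genes of a pair lay apart was compared after the values had been seen. In 5 pairs the counted ratios of the 2 genes did not overlap, and as several of these genes had 1 or 2 probe sets and no share over other gene pairs was computed, nothing is read from this count. Tob1 had a mean of -0.65 over 2 probe sets and Tob2 of 0.35 over 5. The means differed by -1.35 for Cnot6 less Cnot6l and by -0.76 for Cstf2 less Cstf2t, and by 0.60 for Papd4 less Papd5 and 0.55 for Cnot7 less Cnot8. Cstf2t and Papd5 had 1 probe set each. In the other 4 pairs (Papola and Papolg, Btg1 and Btg2, Pabpc1 and Pabpc4, and Cpsf6 and Cpsf7) the ratios overlapped. The Cnot6 pair differed by 3.67 pooled SDs of probe sets and the Tob pair by 2.71, and these were the 2 furthest apart of the 9 pairs. That SD holds nothing of the spread between cultures, so these values do not measure how sure the differences are.

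**Figure D4:**
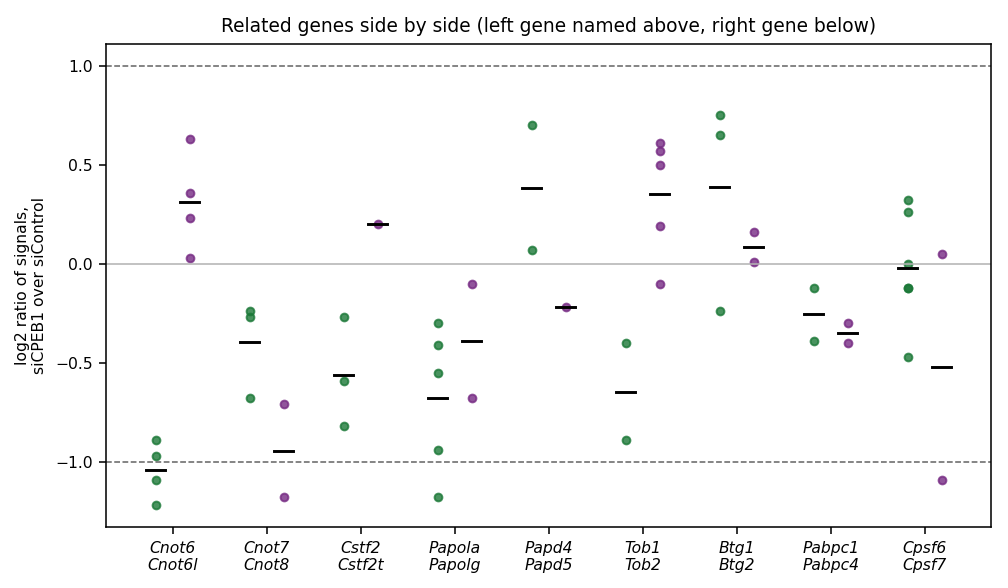
Log2 ratio of siCPEB1 over siControl (vertical axis) of every counted probe set for the 9 pairs of paralogues, with the first gene of each pair on the left (green), the other on the right (purple) and bars at the gene means. The points of Cnot6 lie between -1.22 and -0.89 and those of Cnot6l between 0.03 and 0.63, and in 4 of the 9 pairs the points of the 2 genes overlap.

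The promoters of the 2 pairs that lay furthest apart are shown, because paralogues with like proteins can have unlike upstream sequence. A link between these sequences and the ratios was not tested. Each is the 250 bases before a start listed for the gene in RefSeq on GRCm38.p6, 5′ to 3′ on the gene's strand, at chr11:49712723-49712972 (minus) for Cnot6, chr5:96161991-96162240 (minus, the first of 3 listed starts) for Cnot6l, chr11:94211204-94211453 (plus) for Tob1 and chr15:81858327-81858576 (minus) for Tob2. The outermost RefSeq boundary of Cnot6, Cnot6l and Tob1 lies further upstream, so these 3 windows fall within the annotated gene, and that of Tob2 lies before it. Capitals mark matches on either strand to CCAAT (the CCAAT box), GGGCGG (the GC box) and TATAAA (the TATA box).
Cnot6: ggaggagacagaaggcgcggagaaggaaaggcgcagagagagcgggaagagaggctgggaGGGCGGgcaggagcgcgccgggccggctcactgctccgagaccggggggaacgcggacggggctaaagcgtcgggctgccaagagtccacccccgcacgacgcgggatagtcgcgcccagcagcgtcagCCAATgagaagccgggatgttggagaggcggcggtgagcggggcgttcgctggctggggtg
Cnot6l: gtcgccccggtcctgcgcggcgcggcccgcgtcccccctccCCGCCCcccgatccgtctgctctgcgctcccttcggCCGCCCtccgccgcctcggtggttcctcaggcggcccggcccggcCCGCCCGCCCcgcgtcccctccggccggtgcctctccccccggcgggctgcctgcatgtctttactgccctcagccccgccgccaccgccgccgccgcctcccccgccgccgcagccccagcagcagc
Tob1: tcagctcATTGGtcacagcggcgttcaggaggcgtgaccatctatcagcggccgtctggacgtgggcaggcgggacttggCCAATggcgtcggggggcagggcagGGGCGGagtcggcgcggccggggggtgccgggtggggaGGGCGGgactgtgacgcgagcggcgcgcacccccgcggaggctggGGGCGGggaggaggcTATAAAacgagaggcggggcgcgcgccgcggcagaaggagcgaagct
Tob2: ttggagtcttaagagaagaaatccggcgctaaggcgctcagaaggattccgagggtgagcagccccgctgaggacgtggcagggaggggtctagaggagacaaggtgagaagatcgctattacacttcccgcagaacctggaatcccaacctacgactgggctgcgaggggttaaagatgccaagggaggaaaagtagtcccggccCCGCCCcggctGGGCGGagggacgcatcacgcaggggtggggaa
Cnot6 held 1 CCAAT box and 1 GC box, and Cnot6l 4 GC boxes with no CCAAT. Tob1 held 2 CCAAT boxes, 3 GC boxes and a TATA box, and Tob2 2 GC boxes alone. GC content was 70.8% in Cnot6, 82.4% in Cnot6l, 73.6% in Tob1 and 60.4% in Tob2. None of the 4 held TGACGT (the cAMP response element), CACGTG (the E-box) or CCGGAA (the ETS motif).

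A promoter was matched for 36 of the 42 genes. The GC box stood in 69.4% of these, in 60.2% of the promoters of 9376 measured genes and in 32.9% of all 27025. CCAAT stood in 36.1% of the member promoters and 36.5% of those of measured genes (34.5% of all), and TGACGT in 16.7% and 10.5% (6.56% of all). CCGGAA stood in 19.4% and 23% (12.2% of all), TATAAA in 8.33% and 6.24% (13% of all), and CACGTG in 5.56% and 8.55% (6.05% of all). The median GC content was 62.6% in member promoters and 60.0% in those of measured genes. Matches of this length are a description of the sequence and not of binding.

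Genes around the machinery were mostly within 2-fold, as were most genes on the arrays. Of all 11554 genes, 4.99% were past 2-fold higher and 3.49% past 2-fold lower. At 1 probe set per gene, none of 16 measured relatives of the polyadenylation genes and none of 9 of the deadenylase and CCR4-NOT genes was past 2-fold in either direction, with medians of 0.11 and -0.04. The same held, at 1 probe set per gene, for 14 genes of miRNA silencing (0.11), 19 of histone 3′ processing and Integrator (0.18) and 20 of an exosome list. The exosome is the nuclease complex that degrades RNA from the 3′ end, and the list also held genes outside the complex, such as Skiv2l and Dis3l2. The genes of this list had a median of -0.21, with 5 above and 15 below 0, where 46.2% of all genes lay below 0. Of 21 genes of decapping and decay from the 5′ end, 1 was more than 2-fold lower and none higher at 1 probe set per gene, where 3.49% of all genes were lower. This was Lsm14a, a component of P-bodies that binds Ddx6, with 343 in siCPEB1 and 773 in siControl (-1.17, 2.25-fold lower), and -0.72 and -0.78 at its other counted probe sets. The median of the decapping list was 0.01.

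Over all counted probe sets of these lists, 4 others were past 2-fold, and they are named because of their values. With Lsm14a included, 1 of 19 was lower in the deadenylase list and 3 of 35 in the decapping list. In the Integrator list 1 of 38 was higher, and in the other lists none of 31, 32 and 37 was past 2-fold. Of all counted probe sets 4.04% were past 2-fold lower and 4.49% higher. Cnot11, a CCR4-NOT subunit that binds Cnot10, had 55.6 in siCPEB1 and 171 in siControl (-1.62, 3.08-fold lower) at its dimmest probe set, 122 in siCPEB1 and 197 in siControl (-0.69) at another, and 1195 in siCPEB1 and 1179 in siControl (0.02) at the brightest, which was the chosen one. Ints12, an Integrator subunit, had a probe set with 238 in siCPEB1 and 90.6 in siControl (2.63-fold higher), and a log2 ratio of 0.16 at its brighter one. Dim probe sets of Xrn2, a nuclear exonuclease, and Smg5, a factor of nonsense-mediated decay, had 22.9 in siCPEB1 and 51.8 in siControl (-1.18) for Xrn2, and 14.3 in siCPEB1 and 32.3 in siControl (-1.18) for Smg5. Their chosen probe sets had ratios of 0.18 for Xrn2 and -0.28 for Smg5.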

How the data were processed

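RNA of 1 siCPEB1 and 1 siControl culture was measured on 1 array each. MAS5, run by the authors through Affymetrix Expression Console, gave the values (tool names from the submitters' processing notes, which give no version), and the deposited intensity values are MAS5 signals on a linear scale. Background is subtracted by MAS5 and 1 scaling factor is applied per array, with its target not given in the sources used here. From the deposited intensity the log2 ratio was taken without further scaling, and dividing each array by its median lowers every ratio by 0.04. Symbols came from the platform annotation, updated to RefSeq names, with 34945 probe sets of 1 symbol, 932 of several and 9160 of none, and probe sets with several symbols named no gene. The 64 control probe sets were left out. They include 18 hybridization controls, whose log2 ratio averaged -0.13 ± 0.08 (SD), and 24 poly-A controls, at -0.18 ± 0.18.

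For a gene, 1 probe set was used, preferably without an _x_at or _s_at suffix and then the brightest counted. Past 2-fold means a ratio above 2 or below 0.5. Brighter genes reached the 75th percentile in 1 array and the median in the other. The members and lists were chosen with earlier results of these data known. Every probe set value is given for members past 2-fold at any counted probe set, for those whose counted probe sets differed by more than 1 log2 unit and for known partners of CPEB1, and in the further lists the genes past 2-fold are named. Other probe set values, such as those of Cnot6l, Tob2 and Btg1, were chosen for printing after they had been seen. No test was possible with 1 array per siRNA, and the number of arrays limits the precision.

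The alternatives were 4 scalings (loess with span 0.3, quantile normalization, and division by the median or by the 75th percentile), an offset of 16 on each signal, 3 further filters, the mean of all counted probe sets and the brightest whatever its suffix. The steps were tested on simulated data. Python 3.11.15 was used with numpy 2.4.6, pandas 2.3.3, statsmodels 0.14.6 and matplotlib 3.10.9. Promoter sequences are those of RefSeq on GRCm38.p6.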

Additional observations from a re-analysis of the deposited data

How the results depend on the processing

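At 1 probe set per gene, no member was past 2-fold under any of 10 other ways of processing except the mean of all counted probe sets, which gave 1 lower gene, Cnot6 (-1.04). The median of the members lay between -0.10 and -0.03 in all of them. The number of member probe sets past 2-fold lower was 3 with 16 added to both signals, 3 when both arrays had to reach the median and 3 with the 75th percentile filter, against 5 as reported, 6 when each array was divided by its median or 75th percentile, and 7 with no filter. With no filter 2 dim member probe sets were also past 2-fold higher. Over all genes, the counts of higher and lower genes were 292 and 240 with 16 added, 2351 and 1730 with no filter, and 185 and 227 with the 75th percentile filter, against 577 and 403 as reported. When both arrays had to reach the median, 323 genes were higher and 306 lower, so the higher genes were the majority or the minority depending on the filter. Dividing each array by its median gave 529 higher and 453 lower. At 1.5-fold, a threshold added after the data were seen, 2 members were higher and 4 lower, of 1547 higher and 1245 lower genes, and 8 member probe sets were higher and 16 lower. Of 409 values of single members under the alternatives 403 moved by less than the pooled SD of 0.37, and 6 by more (Cnot4, Cpsf2 and Cpsf7 with the mean, and Cnot7, Parn and Tob2 with the brightest probe set). The sign was the same in every setting for 30 members and not for 11 (Cnot2, Cnot3, Cpsf2, Cpsf7, Cstf1, Fip1l1, Pabpc1, Pabpn1, Pan3, Parn and Pcf11). No paired analysis was possible because each siRNA had 1 array and no test was run. Low signal limits the dim probe sets, where the spread between probe sets was 0.51.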

Other observations

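Cnot1, the scaffold of CCR4-NOT, was the 1 gene of the 42 without a probe set of its own, because its probe sets are annotated to Gm6158 as well. The brighter had 1664 in siCPEB1 and 1546 in siControl (log2 ratio 0.11), and the other, which was too dim to be counted, had 20.1 in siCPEB1 and 17.2 in siControl. Nanos1, an RNA-binding repressor that recruits CCR4-NOT, had the lowest ratio of the deadenylase relatives at 1 probe set per gene, with 35.6 in siCPEB1 and 69.6 in siControl (-0.97), and 25.5 in siCPEB1 and 27 in siControl (-0.08) at its other probe set.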
